A study of Mus musculus with 16 samples.

Results

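The 41 genes described here are immediate-early genes and feedback genes of the ERK kinase pathway, and they were taken from a gene table of 53333 rows by matching each row's Ensembl identifier to the gene's symbol. All 41 had a row of their own, none was joined with a neighbour, and all 41 passed the filter on low counts in every comparison. RNA came from mHiPPoE-2, a transformed mouse hippocampal neuron line grown in serum-containing medium without treatment, and was sequenced after ribosomal depletion. The 16 libraries form 8 groups of 2. WT cells were unedited. METTL3 KO is a single Cas9-edited clone. The Cas9 control is a pair of clones that received Cas9 without a guide RNA, called e1 and e4 here. RBM45 KO is a pair of Cas9-edited clones, 1 and 2. The KO rescue is a pair of clones, m2 and m3, of RBM45 KO cells that carry tagged RBM45 whose guide target site is mutated. The control columns were recognised because every other column matches another group, and the e and m names are those of the columns.

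Immediate-early genes are transcribed within minutes of a signal without the need for new protein. Growth factors and serum in the medium switch on the RAS, RAF, MEK and ERK kinases, and ERK then acts through ternary complex factors and SRF, AP-1 and ETS proteins at the promoters of these genes. Part of the response, including the dual-specificity phosphatases and the Sprouty and Spred proteins, acts back on the kinases and lowers their activity. In neurons the same genes are used as markers of recent synaptic activity, and Arc is a classical example. Many of their mRNAs are short-lived and carry AU-rich elements. The mark m6A, a methylated adenosine of mRNA, is placed by the METTL3 methyltransferase, and RBM45 binds RNA.

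The promoters of 4 members are shown because they hold the SRF and CREB binding motifs that are best known from immediate-early genes, and because their genes changed differently between lines in the values that follow. Sequences are from RefSeq (GRCm38.p6), given 5′ to 3′ on the gene's strand. Capitals mark the CArG box, the SRF motif, in Dusp5 and Srf, and TGACGTCA, the full CRE motif, in Btg2 and Dusp1.
Dusp5, chr19:53529045-53529104, plus strand: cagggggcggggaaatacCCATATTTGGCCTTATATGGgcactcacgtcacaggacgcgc
Srf, chr17:46556203-46556262, minus strand: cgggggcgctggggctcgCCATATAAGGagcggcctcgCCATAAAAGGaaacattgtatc
Btg2, chr1:134079286-134079345, minus strand: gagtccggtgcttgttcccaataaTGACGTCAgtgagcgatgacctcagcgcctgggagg
Dusp1, chr17:26508583-26508642, minus strand: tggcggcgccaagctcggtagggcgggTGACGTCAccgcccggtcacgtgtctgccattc
The Dusp5 and Srf windows each hold 2 CArG boxes within 100 bases of the start, starting 82 and 72 bases before it in Dusp5 and 82 and 62 bases before it in Srf. The CRE starts 166 bases before the start in Btg2 and 143 bases before it in Dusp1. The Dusp5 window overlaps 1 annotated exon, of an opposite-strand gene, and the other windows overlap 0 exons.

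Promoter windows were matched for 29 of the 41 genes. In the 250 bases before the start, with both strands searched, 4 of the 29 held a CArG box (Dusp5, Egr2, Srf and Zfp36), against 1.62% of 27025 genes. A full CRE stood in 3 of the 29 (Btg2, Dusp1 and Maff), against 1.77% of genes. A match is a stretch of letters and not a measured binding site. The members also have short gene bodies, with a median of 5410 bases against 19100 for the 16223 genes tested on libraries. In GENCODE transcripts the pentamer ATTTA, the core of AU-rich elements, occurred at a median of 2.27 per kb of 3′ UTR in the 41 members and 1.22 per kb in the 11473 tested genes that have a coding transcript. At least 3 copies were present in 23 of 41 members (56.1%) and in 34.8% of those genes. Ier3, with 8.12 per kb, and Ccn1, with 7.22 per kb, were the densest, while Ier2, Arc and Etv4 had 0 copies. GGACT, a common form of the m6A consensus, occurred at a median of 1.32 per kb of member transcript against 1.05 per kb.

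Library totals ran from 7193908 to 18751324 counts, and the 41 genes together held 7988 to 21227 counts per library. For 12 members (Fosl1, Jun, Junb, Jund, Dusp1, Dusp5, Atf3, Mafk, Zfp36, Spry4, Phlda1 and Ccn2) another gene lies on the opposite strand, and reads of the pair cannot be told apart because the library kit was non-directional. Dusp1 and Srf also overlap a gene on their own strand. Levels are given as CPM, the gene's count relative to the TMM-scaled library size. Mettl3 stood at 3.35 and 3.71 CPM in METTL3 KO and at 8.07 to 11.7 CPM in the other 14 libraries. Rbm45 ranged from 5.7 to 10.8 CPM in RBM45 KO, from 12.8 to 16.7 in the controls and from 21.1 to 25.9 in the KO rescue, so its transcript was still counted in the knockout clones. Of the 11 neuron markers, Dcx, Stmn2 and Nefl had 0 counts in every library, and Rbfox3, Snap25 and Nefm had 2 counts each over all 16. Syt1 and Syp reached at most 0.72 and 0.398 CPM. Tubb3 stood at 0.323 to 2.78 CPM, Eno2 at 4.86 to 9.21 and Map2 at 39.7 to 138. The 6 mesenchymal markers summed to 1490 to 1530 CPM in METTL3 KO, 2130 to 2210 in WT and 2190 to 4770 in the other clones, with Lum at 0 in every group. Most of that sum was Fn1 and Vim, which were lower in METTL3 KO than in WT, while Col1a1, Col1a2 and Pdgfrb were higher, so that 3 of the 5 tested were higher and 2 lower, with a median log2 change of 0.84. The 11 neuron markers summed to 50.7 to 73.6 CPM in WT, 88.9 to 94.2 in METTL3 KO and 102 to 145 in the controls, most of it Map2. The part of these differences in the results was not tested, and in bulk RNA fewer cells of a type and less RNA per cell cannot be told apart. The 12 most abundant rows took 53.3% to 70.6% of the counts, and their share was lower in METTL3 KO (56.8% and 53.5%) than in WT (68.5% and 64.6%). TMM scaling sets the typical gene equal between lines. With libraries scaled by total counts alone the median of all genes in METTL3 KO moved up by 0.50 (log2) against WT and by 0.47 against the controls, so the changes given here are relative to the typical gene.

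Expression per exon length spanned a wide range in WT. Ccn1 (CYR61), a secreted matricellular protein, had 156 exonic CPM per kb, followed by Ier3 at 86.1, Ccn2 (CTGF) at 70.1 and Myc at 49.5. Etv1 was lowest at 0.232 CPM per kb. Over all lines, Ier3 had the widest range of mean CPM (14.8-fold between the highest and the lowest line or clone), followed by Arc (12.8-fold) and Fosb (11.7-fold). Fos itself was low throughout, with 150 counts over the 16 libraries and 0.201 to 1.8 CPM, and Dusp2 had 92 counts.

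**Figure D1:**
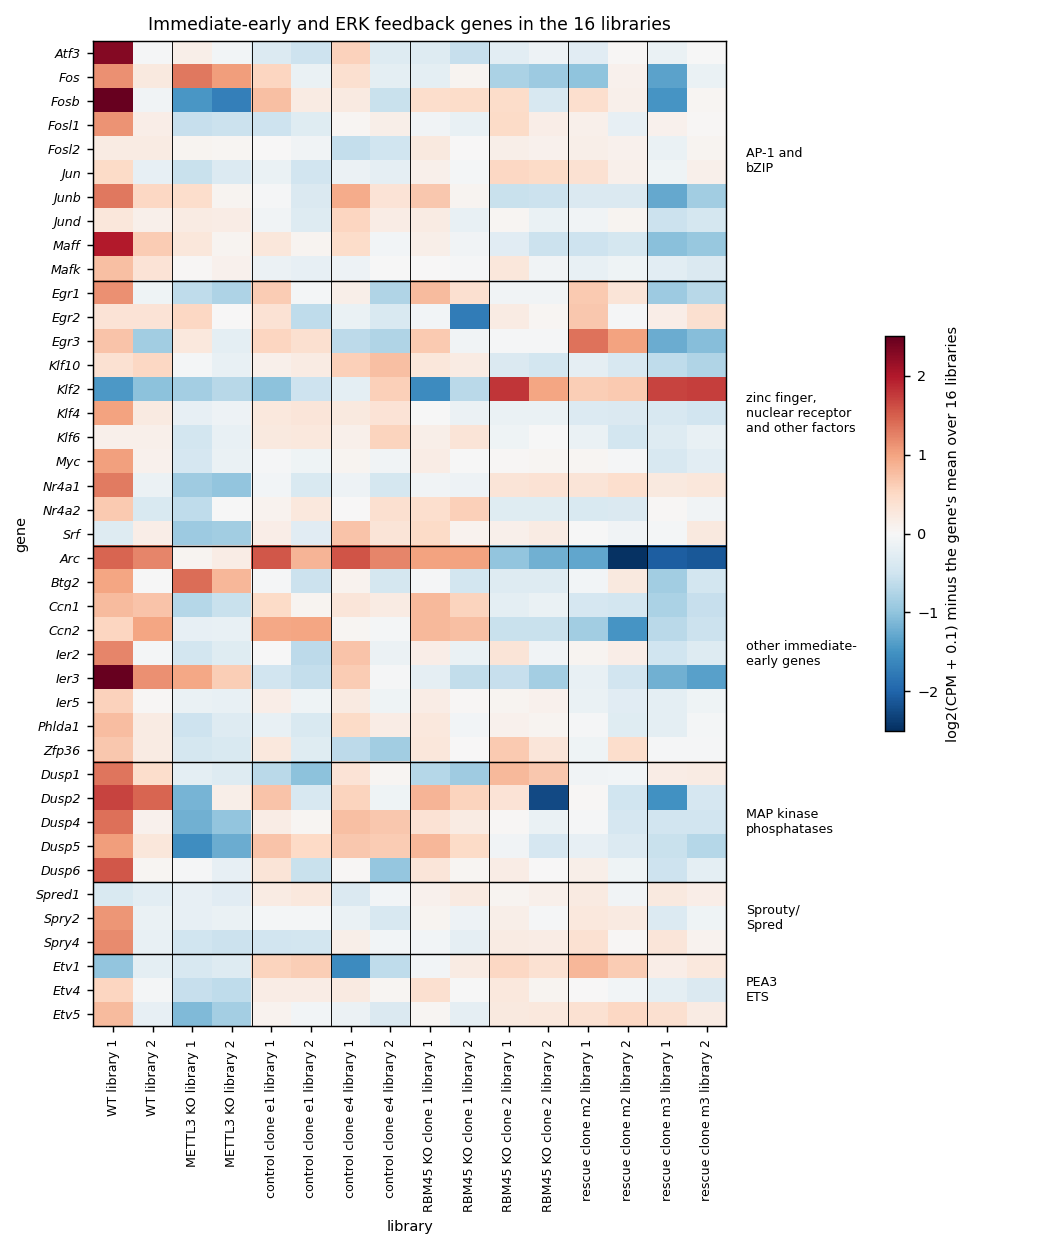
Rows are the 41 genes grouped by role and columns are the 16 libraries; colour is log2(CPM + 0.1) minus the gene's mean over the 16 libraries. WT library 1 is dark red for Ier3, Fosb, Atf3 and Maff, the METTL3 KO columns are blue for Dusp4, Dusp5, Etv5 and Srf, and Arc is blue in RBM45 KO clone 2 and in both rescue clones.

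The pair of WT libraries differed from each other in these genes. Ier3 stood at 137 CPM in WT library 1 and 30.8 in WT library 2, Fosb at 12.4 and 1.9, and Atf3, a stress-inducible bZIP factor, at 16.3 and 3.2. Dusp6, the cytoplasmic ERK phosphatase, stood at 34.4 and 12.1 CPM, and Egr1 at 83.8 and 35. Over the 41 genes, 13 were more than 2-fold higher in WT library 1 and 0 were more than 2-fold lower, where 2.48% of all genes were more than 2-fold higher in that library. Other members were close in the pair, such as Ccn1 (235 and 222 CPM), Fosl2 (146 in both) and Klf6 (47.9 and 47.7). The median log2 difference between library 1 and library 2 over the 41 genes was 0.77 in WT and between -0.13 and 0.21 in the other 7 groups. Library 1 was higher than library 2 for 33 of the 41 genes in WT, and also for 34 in RBM45 KO clone 1, 31 in e4, 30 in e1, 29 in RBM45 KO clone 2 and 28 in m2, against 20 in METTL3 KO and 14 in m3. Over all genes the share was 49% to 51.4% in each group. Ier3 was higher in library 1 in 8 of 8 groups and Egr1 in 7 of 8. Counts of members called against WT are therefore given with and without WT library 1.

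**Figure D2:**
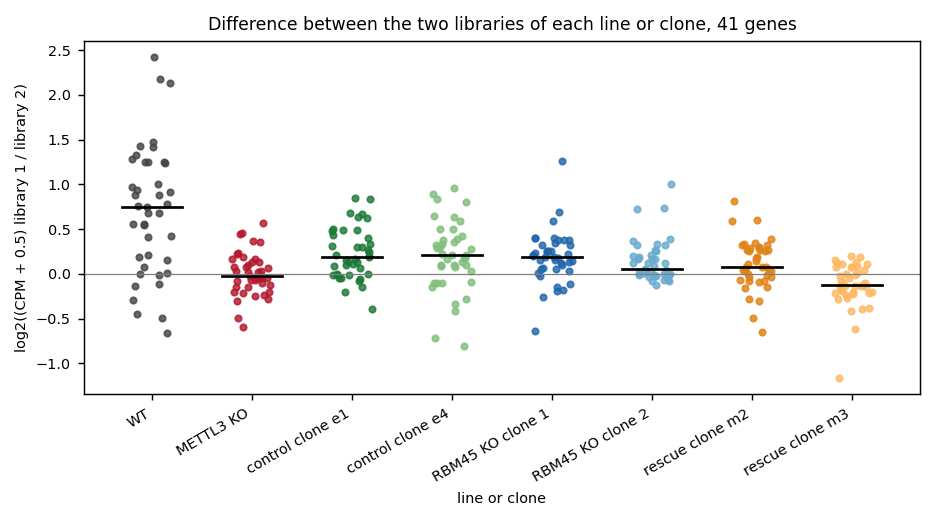
Each point is a gene, placed at log2 of (CPM + 0.5) in library 1 over library 2 of the same line or clone, and the bar is the median of the 41 genes. The WT points lie mostly above 0, with a median of 0.77, while the medians of the other 7 groups lie between -0.13 and 0.21.

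METTL3 KO was compared with WT and with the Cas9 control clones to see which genes differ when METTL3 is lost. The phosphatases Dusp4 and Dusp5, the ETS factors Etv4 and Etv5, and Srf, Arc, Ccn1 and Ccn2 were lower in METTL3 KO than in both. Against WT, 29 of the 41 genes (70.7%) were lower and 0 were higher by edgeR's quasi-likelihood test at an adjusted p under 0.05, where 22.9% of all genes tested were called, 11.8% lower and 11.2% higher. The median log2 change of the 41 was -0.87, against 0.01 over all genes. Without WT library 1, 12 genes were lower and 1 was higher, where 11.6% of all genes were called, 5.77% lower and 5.83% higher. The 12 were all among the 29. Without WT library 2, 28 were lower, where 19.3% of all genes were called, 9.07% higher and 10.3% lower. Against the 4 control libraries 12 genes were lower and 3 were higher (36.6% of the 41), where 30.6% of all genes were called, 14.5% lower and 16.1% higher. The share of members called against the controls was thus close to that of all genes. The 12 lower than the controls were all among the 29, and 9 of them (Dusp4, Dusp5, Etv5, Srf, Klf10, Arc, Phlda1, Ccn1 and Ccn2) were also lower than WT library 2 alone. The METTL3 KO libraries are the same in these comparisons, so these are not independent of each other. With METTL3 KO being a single clone, the tests compare that clone with the other lines at the spread between replicate libraries and do not separate the edit from the clone.

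**Figure D3:**
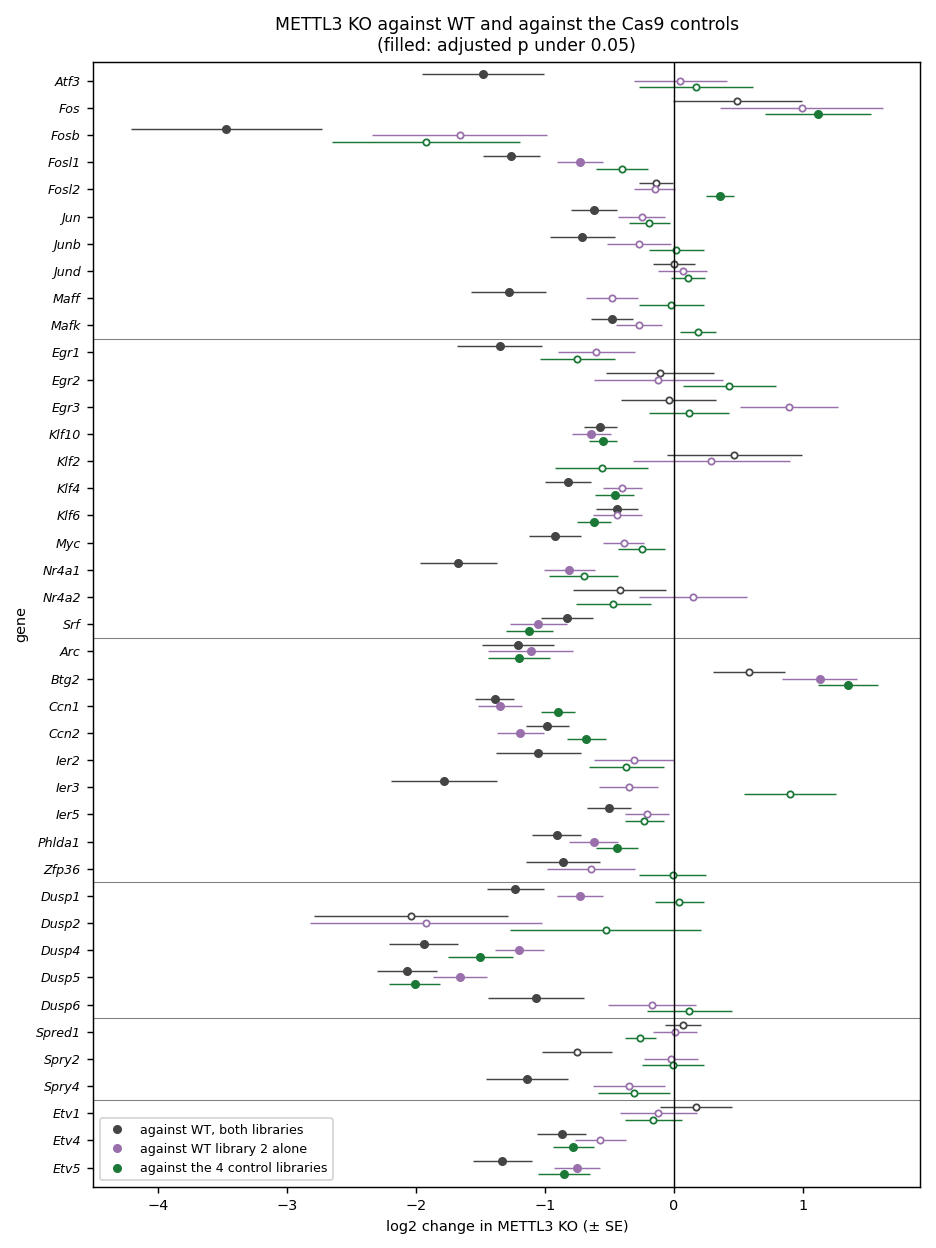
Points are the log2 change of each gene in METTL3 KO, with its standard error, against both WT libraries (grey), against WT library 2 alone (purple) and against the 4 control libraries (green); filled points have an adjusted p under 0.05. Dusp4, Dusp5 and Ccn1 are filled and lie to the left in all 3 comparisons, while Ier3, Atf3 and Dusp6 are filled only against both WT libraries.

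By role, the genes lower than in WT were 7 of 10 AP-1 and related bZIP factors, 7 of 11 zinc finger, nuclear receptor and other factors, 8 of 9 other immediate-early genes, 4 of 5 MAP kinase phosphatases, 1 of 3 Sprouty and Spred inhibitors and 2 of 3 PEA3-type ETS factors. The phosphatases had the lowest median change (-1.94). Without WT library 1 the lower genes were 1 of 10 (Fosl1), 3 of 11 (Klf10, Nr4a1 and Srf), 4 of 9 (Arc, Phlda1, Ccn1 and Ccn2), 3 of 5 (Dusp1, Dusp4 and Dusp5), 0 of 3 and 1 of 3 (Etv5), and the median change of the phosphatases was -1.20. Against the controls the lower genes were 4 of 11 zinc finger and other factors, 4 of 9 other immediate-early genes, 2 of 5 phosphatases and 2 of 3 ETS factors, with 0 in the AP-1 and Sprouty groups.

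The MAP kinase phosphatases remove the activating phosphates of ERK and its relatives, and 4 of the 5 measured members were lower than in WT. Dusp5, the nuclear ERK phosphatase whose promoter holds the paired CArG boxes, stood at 5.51 and 6.89 CPM in METTL3 KO and at 33.8 and 20 CPM in WT. The control libraries held 23.2 to 27 CPM and the lowest of the other 14 libraries 9.94 CPM, so METTL3 KO did not overlap any other library. The log2 change was -2.07 (SE 0.23, adjusted p 1.25e-05) against WT, -1.66 (adjusted p 5.52e-05) against WT library 2 alone and -2.01 (SE 0.20, adjusted p 9.16e-07) against the controls. Dusp4, a nuclear phosphatase induced by ERK, stood at 9.9 and 11.6 CPM in METTL3 KO, at 59.7 and 24.9 in WT and at 23.9 to 38.7 in the controls, again below all others. Its change was -1.94 (SE 0.27, adjusted p 0.000117) against WT, -1.20 (SE 0.19, adjusted p 0.000382) against WT library 2 alone and -1.50 (SE 0.25, adjusted p 0.000174) against the controls. Dusp1 was lower than in WT, at 12.4 and 11.8 CPM against 37.4 and 20, with a change of -1.23 (SE 0.22, adjusted p 0.000814), or -0.73 (adjusted p 0.0144) against WT library 2 alone, but overlapped the controls, which ran from 7.16 to 18.8 CPM. The Dusp1 row covers 56539 bases and overlaps Ergic1 on the opposite strand, and over its exon bins alone the change against WT was -1.18 (adjusted p 0.00162). Dusp6 was lower than in WT with both WT libraries (-1.07, adjusted p 0.0473) and differed by -0.17 (adjusted p 0.796) from WT library 2. Dusp2 was too low to be informative, with 0.113 and 0.427 CPM against 1.44 and 1.2.

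Among the PEA3-type ETS factors, transcription factors that act downstream of ERK and FGF signalling, Etv5 stood at 20.4 and 24.4 CPM in METTL3 KO, 76.6 and 38 in WT and 34.3 to 47 in the controls. It was below all other libraries, with a change of -1.33 (SE 0.23, adjusted p 0.000604) against WT, -0.75 (adjusted p 0.00951) against WT library 2 alone and -0.85 (SE 0.20, adjusted p 0.00378) against the controls. Etv4 stood at 8.55 and 8.11 CPM against 18.4 and 12.3 in WT and 13.2 to 14.9 in the controls, and was lower than in the controls by 0.78 on the log2 scale (adjusted p 0.0016). Against WT library 2 alone its change was -0.57 (adjusted p 0.0777). Etv1 was not called, with 3.94 and 4.15 CPM against 2.59 and 4.39. Of the Sprouty and Spred inhibitors, Spry4 was lower than in WT (-1.14, adjusted p 0.0168) but not without WT library 1 (-0.35, adjusted p 0.452), and its 3.26 and 3.17 CPM were just under the lowest of the others, 3.3 CPM. Spry2 and Spred1 were not called against WT or the controls.

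Srf, whose own promoter window shown at the start holds matches to the CArG box, encodes the factor that binds this motif. It stood at 16.1 and 16.6 CPM in METTL3 KO, 24 and 34 in WT and 24.8 to 49.4 in the controls, with no overlap. The change was -0.83 (adjusted p 0.00692) against WT and -1.12 (SE 0.18, adjusted p 0.000124) against the controls. Against WT, leaving out WT library 1 gave -1.05 and leaving out WT library 2 gave -0.55, where Srf was not called. With scaling by total counts alone the change against WT was -0.35 and Srf was not called (adjusted p 0.216, same test). Klf10, a TGF-beta-inducible repressor, was lower by 0.57 against WT and 0.55 against the controls on the log2 scale, and its change against WT library 2 alone was -0.64 (adjusted p 0.0108). Klf4 and Klf6 were also lower in both comparisons but not against WT library 2 alone (-0.40, adjusted p 0.0887, and -0.44, adjusted p 0.137). Nr4a1, an orphan nuclear receptor, stood at 7.2 and 6.71 CPM, below the other 14 libraries (9.85 to 33.1), with a change of -1.67 (SE 0.30, adjusted p 0.00103) against WT, -0.81 (adjusted p 0.0138) against WT library 2 alone and -0.70 (adjusted p 0.0608) against the controls. Egr1 and Myc were lower than both WT libraries together (-1.35 and -0.92) and were not called without WT library 1 (-0.60, adjusted p 0.209, and -0.39, adjusted p 0.12) or against the controls. Egr2, Egr3, Klf2 and Nr4a2 were not called in either comparison.

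The CCN genes and Arc were lower in METTL3 KO as well. Ccn1 stood at 82.6 and 91.6 CPM in METTL3 KO, 235 and 222 in WT and 142 to 188 in the controls, a change of -1.39 (SE 0.15, adjusted p 1.04e-05) against WT and -0.90 (SE 0.13, adjusted p 5.82e-05) against the controls. The pair of rescue clones, at 78.2 to 101 CPM, reached the same level. Ccn2 stood at 73.4 and 74.6 CPM against 123 and 168 in WT, with a change of -0.98 (SE 0.17, adjusted p 0.000703), and was lower than in the controls by 0.68 on the log2 scale, where clone e1 (166 and 168 CPM) lay far above clone e4 (87.3 and 81.8). Arc, which shapes synapses by driving AMPA receptor endocytosis, stood at 3.26 and 3.54 CPM against 8.64 and 7.39 in WT and 5.64 to 9.44 in the controls, with changes of -1.21 (adjusted p 0.00549) and -1.20 (adjusted p 0.00111). Phlda1 was lower by 0.91 against WT and 0.44 against the controls on the log2 scale. Its 15.8 and 18.2 CPM in METTL3 KO overlapped control clone e1 (17.4 to 19.9) and lay below clone e4 (25.9 to 31.4). The call of Phlda1 against the controls was lost with DESeq2, over exon bins alone and with scaling by total counts alone. Against WT library 2 alone the changes were -1.35 for Ccn1 (adjusted p 6.55e-05), -1.19 for Ccn2 (adjusted p 0.000264), -1.11 for Arc (adjusted p 0.0375) and -0.62 for Phlda1 (adjusted p 0.0427). Ier2, Ier3, Ier5 and Zfp36 were lower than in WT only with WT library 1. Ier3 stood at 27.3 and 21.3 CPM in METTL3 KO, near WT library 2 (30.8), and its range overlapped that of the controls (9.24 to 21.6).

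Btg2, an antiproliferative gene induced by p53 and growth factors, was higher in METTL3 KO than in the controls. It stood at 29.5 and 19.8 CPM in METTL3 KO, 7.63 to 11.8 in the controls and 22.3 and 11.1 in WT. The difference was 1.35 against the controls (SE 0.23, adjusted p 0.000265) and 1.13 against WT library 2 (SE 0.29, adjusted p 0.0163), while METTL3 KO overlapped WT library 1. In the AP-1 group, Fosl2 (0.36, SE 0.11, adjusted p 0.0177) and Fos (1.12, SE 0.41, adjusted p 0.0462) were higher than in the controls, with Fos at 1.8 and 1.46 CPM against 0.543 to 0.997. Neither was called against WT, and Fosl2 was close to WT in level (134 and 131 CPM against 146 in both). Fosl1 was lower than in WT with both libraries (-1.26, SE 0.22, adjusted p 0.000841) and without library 1 (-0.73, adjusted p 0.0145), and its 13.7 and 14.2 CPM were just below all others (14.3 to 44.8). Fosb, at 0.675 and 0.549 CPM against 12.4 and 1.9, was lower than in WT (-3.47, SE 0.74, adjusted p 0.00299) but not against WT library 2 (-1.66, adjusted p 0.122). Atf3, Jun, Junb, Maff and Mafk were lower only with WT library 1 included, and Jund was not called.

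In all, METTL3 KO lay below every one of the other 14 libraries for 8 members (Dusp4, Dusp5, Etv4, Etv5, Srf, Nr4a1, Fosl1 and Spry4), where 8.87% of all genes did so, and above all of them for 0 members, where 9.94% did. The calls moved when single METTL3 KO libraries were left out: against WT, 18 genes were lower without METTL3 KO library 1, where 12% of all genes were called, and 15 without library 2, where 10.3% were. Against the controls 8 were lower and 1 was higher without library 1, where 16.7% of all genes were called. The scaling moved the split of calls. With total counts alone, 94.5% of the calls among all genes against WT were higher, in place of 48.8%. Then 11 members were lower than in WT (Dusp1, Dusp4, Dusp5, Etv5, Ccn1, Fosl1, Fosb, Maff, Ier3, Egr1 and Nr4a1) and 2 were higher (Btg2 and Jund), where 1.81% of all genes were lower and 31.3% higher. Against the controls 5 were lower (Dusp4, Dusp5, Ccn1, Srf and Arc) and 9 were higher, where 2.21% of all genes were lower and 39.7% higher. Dusp4, Dusp5 and Ccn1 were lower in both comparisons under either scaling.

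**Figure D4:**
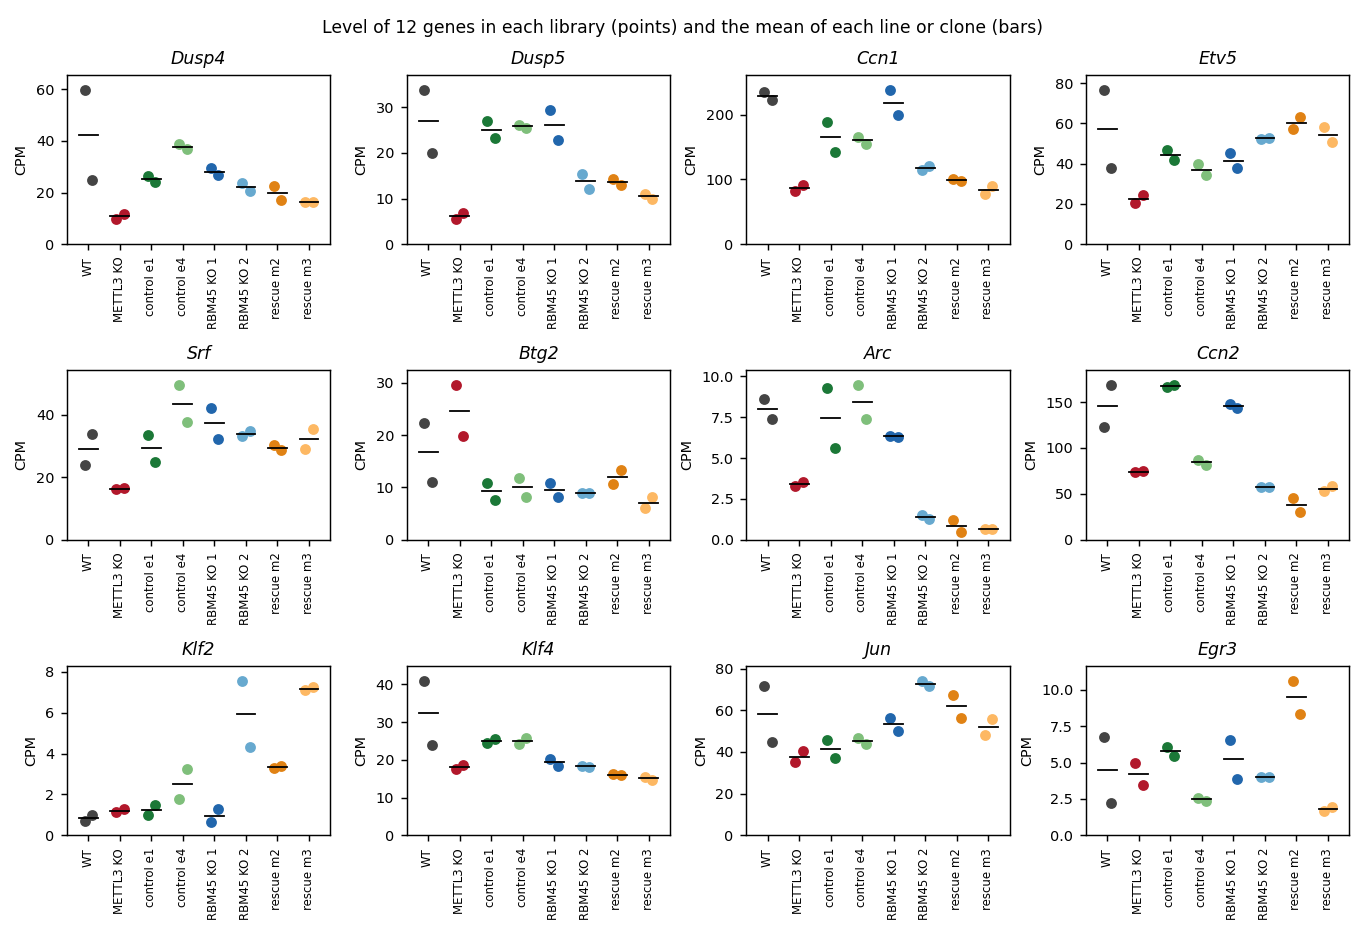
Each panel gives a gene's CPM (vertical axis from 0) in the 2 libraries of each line or clone, with the mean as a bar. METTL3 KO is the lowest group for Dusp4, Dusp5, Etv5 and Srf, and the mean of Btg2 is highest there; Arc, Ccn2, Klf2 and Egr3 differ between clones of the same genotype.

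Exonic and intronic counts were compared next, since a change in transcription moves both, whereas exonic counts also depend on the decay of the mature RNA. Over the 8597 genes with enough counts in both classes, the exon-to-intron ratio was lower in METTL3 KO than in WT by a median of 0.52 on the log2 scale. Counts summed over the same genes did not show this shift. They gave 0.624 and 0.605 intron counts per exon count in METTL3 KO and 0.664 and 0.578 in WT. In the test, each class was scaled to its own typical gene. Of the 41 genes, 23 had enough counts. The difference between the exonic and the intronic change (METTL3 KO minus WT) had a median of 0.29, against 0.00 over all genes. It was above 0 for 17 of the 23. These differences are relative to the typical gene, whose ratio fell. A value above 0 therefore does not by itself mean that exonic CPM fell by less than intronic CPM. A single member was called, where 0.465% of all genes were. This was Ccn2, whose intronic level was 1.35 and 2.19 CPM in METTL3 KO and 4.75 and 7.99 in WT, on 12 to 80 counts, while its exonic level was 102 and 103 against 168 and 233. Its difference of 1.33 (SE 0.28, adjusted p 0.0238) is positive because intronic counts were lower by more than exonic ones. The call was lost when any of the 4 libraries was left out, with adjusted p from 0.0751 to 0.177 and differences from 1.17 to 1.7 (1.38 and 0.0751 without WT library 1). Klf6 (1.02, SE 0.27, adjusted p 0.071) and Klf10 (0.72, SE 0.20, adjusted p 0.0861) came next and did not pass. For Dusp5 the exonic level was 5.02 CPM against 23.1 and the intronic level 2.15 against 7.86. In CPM the exonic level of Dusp5 thus fell by the larger factor, while the scaled difference was 0.20 (SE 0.30, adjusted p 0.814). Dusp4 had 11.2 against 42.2 exonic and 1.84 against 7.87 intronic CPM, a difference of 0.66 (SE 0.30, adjusted p 0.294). For Ccn1 the difference was 0.04 (SE 0.21) and for Etv5 -0.03 (SE 0.19). In CPM, Ccn1 had 118 against 314 exonic and 6.01 against 11.1 intronic. Etv5 had 25.6 against 71.1 exonic and 8.57 against 15.7 intronic. The exonic level thus fell by the larger factor in Ccn1 and Etv5, and the intronic level did so in Dusp4.

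**Figure D5:**
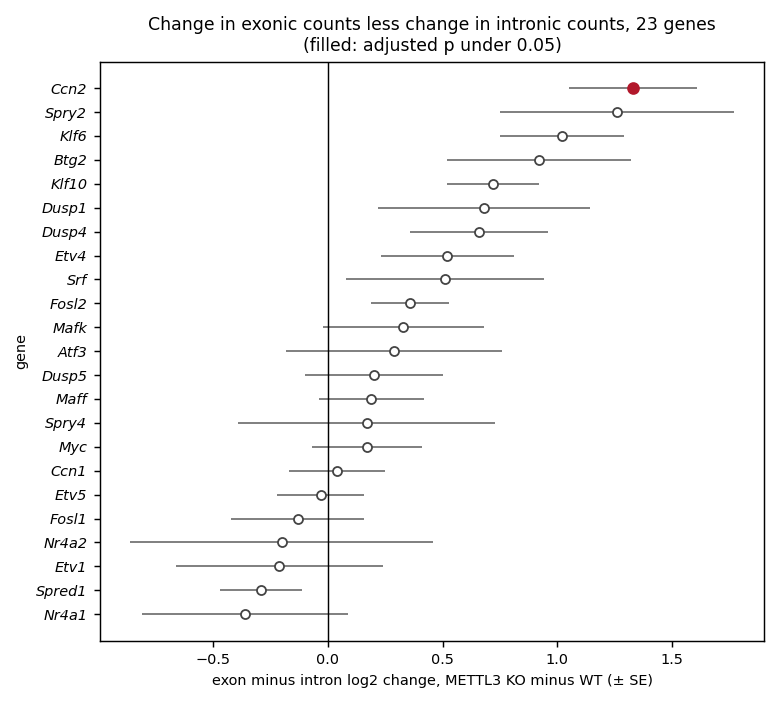
Points give, for 23 genes, the log2 change of exonic counts minus that of intronic counts between METTL3 KO and WT, with the standard error; the filled point has an adjusted p under 0.05. Ccn2 lies at 1.33 and is the only filled point, and 17 of the 23 lie above 0. Each class is scaled to its own typical gene, so 0 stands for the typical gene.

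Further gene lists of the pathway were read beside the members. Of 31 genes of the ERK cascade itself, 3 were higher and 4 lower in METTL3 KO than in WT, with a median change of -0.08, and this share of 22.6% is close to the 22.9% of all genes. Without WT library 1, 1 was higher and 4 were lower, 16.1% against 11.6% of all genes. Gab1, a docking adaptor, was higher (50.2 against 25.9 CPM, 0.94, SE 0.19), as was the scaffold Ksr1 (28.2 against 17.3, 0.70, SE 0.17). Nras (23.2 against 36.4, -0.63, SE 0.15) and Pea15a, a cytoplasmic anchor of ERK (67.2 against 98.5, -0.55, SE 0.13), were lower. Against the controls 4 were higher and 6 lower, 32.3% against 30.6% of all genes, with Pea15a at 67.2 against 128 CPM (-0.92, SE 0.11). Of the 8 further feedback inhibitors tested, 0 were called against WT, and Dusp8, Dusp10 and Dusp16, which act mainly on the p38 and JNK branches, were higher than in the controls (0.90, 0.48 and 0.39). This was 37.5% of the list, where 30.6% of all genes were called. Of 6 proteins that bind AU-rich mRNA, Zfp36l2 (67.1 against 114 CPM, -0.76, SE 0.15) and Khsrp (70.3 against 110, -0.65, SE 0.13) were lower than in WT and also lower than in the controls. Zfp36l1 was higher than in the controls, so 1 was higher and 2 were lower there, 50% of the list against 30.6% of all genes. Against WT, 33.3% of this list and 25% of the next list were called, where 22.9% of all genes were. Among 8 further bZIP factors and SRF partners, Maf (0.88) and Mrtfb (0.45), an SRF coactivator, were higher than in WT, and 0 were called without WT library 1, where Zfp36l2 and Khsrp were still lower.

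The control clones were set against WT to see how far clones made without a guide RNA differ from the parent line. Here 13 of the 41 genes (31.7%) were lower and 0 higher, where 8.99% of all genes were called, 5.79% lower and 3.19% higher. Without WT library 1 only Dusp1 and Ier3 were called, both lower, where 2.55% of all genes were, 0.667% higher and 1.88% lower. Ier3 ran from 9.24 to 21.6 CPM in the controls and was 137 and 30.8 in WT, a change of -2.68 (SE 0.34, adjusted p 6.69e-05), and of -1.25 (SE 0.20, adjusted p 0.00127) against WT library 2. Dusp1 changed by -1.27 (SE 0.18, adjusted p 0.000205), and by -0.76 (adjusted p 0.0128) against WT library 2. Without WT library 2, 25 members were lower, where 11.9% of all genes were called, 4.83% higher and 7.03% lower. Leaving out library 2 of clone e1 gave 7, where 5.65% of all genes were called, and leaving out library 1 of clone e4 gave 20 lower and 1 higher, where 12.4% were. The members higher in WT than in METTL3 KO and those higher in WT than in the controls share the same WT libraries.

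Loss of RBM45 was examined on the clone as the unit, with the libraries of each clone added together. No member passed in any of the 3 RBM45 comparisons by edgeR's quasi-likelihood test, and 0 of 16867 genes passed, so the percent called is 0 in each. Between RBM45 KO and the controls 2 members had an unadjusted p under 0.05, where 5.83% of all genes did, and DESeq2 called 0 members and 6 genes in all. The median change of the 41 was 0.05. Klf4 and Jun had the smallest p. Klf4 stood at 18.2 to 20.2 CPM in the 4 RBM45 KO libraries and at 24.3 to 25.9 in the 4 control libraries, without overlap (-0.42, SE 0.13, adjusted p 0.754). Jun stood at 49.9 to 74 CPM in RBM45 KO and 37 to 46.6 in the controls (0.55, SE 0.20, adjusted p 0.754). Zfp36 (4.66 against 2.91 CPM), Nr4a1 (14.8 against 11.3) and Fosl2 (139 against 105) were next, all with overlapping libraries and an adjusted p of 0.754.

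In the rescue clones, neither gene lay in the control range. Klf4 was at 14.7 to 16.2 CPM in the rescue, below the RBM45 KO libraries, and Jun at 48 to 67.4, above the controls. No member was called between the rescue and the controls, and 11 had an unadjusted p under 0.05, where 15.5% of all genes did, and the 5 with the smallest p were Klf4, Arc, Klf6, Maff and Dusp5. Arc stood at 0.476 to 1.21 CPM in the rescue against 5.64 to 9.44 in the controls (-3.31, SE 0.70), Klf6 at 36 against 54.1 (-0.61, SE 0.15), Maff at 8.85 against 16.8 (-0.91, SE 0.24) and Dusp5 at 12.1 against 25.5 (-1.08, SE 0.31). All 5 had an adjusted p of 0.276. DESeq2 called 460 genes in all and 3 members, Arc, Klf4 and Klf6, each lower in the rescue. Between the rescue and RBM45 KO 4 members had an unadjusted p under 0.05, where 7.35% of all genes did, and DESeq2 called 0 members and 49 genes in all. The 5 members with the smallest p were Arc (-2.30), Ccn1 (-0.88), Klf6 (-0.39), Ier5 (-0.31) and Maff (-0.56), with an adjusted p of 0.662 each. Of these, Klf6 and Ier5 turned positive (0.10 and 0.17) with scaling by total counts alone, under which the median of all genes moved by 0.47.

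When the 16 libraries were tested in 8 groups, so that the spread is between replicate libraries and not between clones, 8 members were called between RBM45 KO and the controls, where 15.5% of all genes were, 7.85% higher and 7.63% lower. In the same way 8 were called between the rescue and RBM45 KO, where 18% of all genes were, 9.62% higher and 8.37% lower. Between the rescue and the controls 18 were called, 6 higher and 12 lower, where 34.3% of all genes were, 17.5% higher and 16.9% lower. Klf2 was the single member higher in the rescue than in RBM45 KO. Klf4 (-0.41, adjusted p 0.0294) and Jun (0.53, adjusted p 0.00896) were among those between RBM45 KO and the controls.

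Clones of the same genotype differed from each other in many members. Between the control clones 7 genes were higher in e4 and 5 lower (29.3%), where 19.6% of all genes were called, 9.96% higher and 9.61% lower. Etv1 stood at 7.73 and 7.99 CPM in e1 and 1.69 and 3.33 in e4 (-1.58, SE 0.25, adjusted p 0.000185). Ccn2 was lower in e4 (-0.98, SE 0.17) and Dusp1 higher (9.16 and 7.16 in e1 against 18.8 and 15.3 in e4, 1.06, SE 0.22). Egr3, Fosl2 and Spred1 were lower in e4, and Klf10, Jund, Phlda1, Junb, Srf and Klf2 were higher. The count fell to 7, 6 and 6 without library 1 or 2 of e1 or library 1 of e4, where 12.9%, 10.3% and 12.7% of all genes were called, and to 2 higher and 5 lower when libraries were scaled by total counts alone (12.5% of all genes called).

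Between the RBM45 KO clones 2 genes were higher in clone 2 and 6 were lower (19.5%), where 14.1% of all genes were called, 6.49% higher and 7.65% lower. Arc stood at 6.35 and 6.3 CPM in clone 1, within the control range, and at 1.51 and 1.29 in clone 2, near the rescue clones (-2.17, SE 0.33, adjusted p 0.000135). Klf2, a Krüppel-like factor known from endothelial shear stress and lymphocyte quiescence, was 0.645 and 1.29 CPM in clone 1 and 7.55 and 4.32 in clone 2 (2.55, SE 0.38, adjusted p 0.000115). The rescue clones, derived from RBM45 KO cells, held 3.31 and 3.41 CPM in m2 and 7.11 and 7.25 in m3. Ccn2 fell from 148 and 143 CPM in clone 1 to 57.4 and 57.5 in clone 2 (-1.34, SE 0.17, adjusted p 2.52e-05), and Ccn1 from 238 and 199 to 114 and 121 (-0.89, SE 0.15). Dusp5 (29.3 and 22.9 against 15.4 and 12.2 CPM), Klf10 and Junb were lower in clone 2 as well. Dusp1 was higher (8.93 and 7.94 against 25.9 and 23.7, 1.56, SE 0.23), also over its exon bins (1.76). With total counts alone 3 genes were higher (Dusp1, Klf2 and Jun) and 3 lower (Arc, Ccn1 and Ccn2), where 10.8% of all genes were called.

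Between the rescue clones 3 members were called (7.32%), where 2.29% of all genes were, 0.807% higher and 1.48% lower. Egr3 stood at 10.6 and 8.34 CPM in m2, the highest of all libraries, and at 1.68 and 1.92 in m3, the lowest (-2.40, SE 0.34, adjusted p 0.000558). Egr1 followed in the same direction, at 59.6 and 46.8 against 19.9 and 23.1 CPM (-1.31, SE 0.32, adjusted p 0.0385), and Klf2 was higher in m3 (1.09, SE 0.28, adjusted p 0.0482). Only Egr3 was called with DESeq2 and with scaling by total counts alone (1.08% of all genes called). Egr1 and Klf2 were also not called when any library of m2 or m3 was left out. Over the 10 alternatives the change ran from -2.55 to -2.2 for Egr3, from -1.46 to -1.12 for Egr1 and from 1.07 to 1.2 for Klf2.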

How the data were processed

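Ribodepleted RNA-seq of 16 libraries was analysed from count tables. The deposited counts are fragments per gene body, introns included, per exon bin and per intron, made by the authors with featureCounts 1.6.3 on Ensembl 98 with strand setting 1, per the file headers. The submitters' processing notes name HISAT2 2.1.0 for the alignment. Whether replicate libraries came from separate cultures is not given in the labels, so the spread behind each p-value may be technical.

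The gene table was tested with edgeR 4.0.16 (TMM, filterByExpr, quasi-likelihood, Benjamini-Hochberg over all genes, threshold 0.05) in R 4.3.3. The 3 RBM45 comparisons used the summed counts of 6 clones, and the others used 16 libraries in 8 groups. Exonic and intronic changes were compared in 1 model with the library as a block, over genes with a mean of at least 10 counts in each class. Scripts were tested on simulated data. Alternatives were DESeq2 1.42.0, total-count scaling, no filter, exon bins alone, leaving out libraries or clones, and a replicate block. The 41 genes and the other lists were chosen with earlier results of these data known. All 41 members may be named, with full statistics for at most the 12 with the smallest p among those called, or the 5 with the smallest p where none was called; up to 4 genes of each pathway list are named. Promoters are RefSeq (GRCm38.p6), and 3′ UTRs are GENCODE 21. Promoters of 12 members were not used here.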

Additional observations from a re-analysis of the deposited data

Results flagged for a closer look

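In 6 of 123 sets of 4 libraries of a genotype, 1 library stood apart from the other 3 by Dixon's test. The test's rate of about 1 in 20 by chance holds for 4 independent libraries. Each set here is 2 clones with 2 libraries each, so the count cannot be set against that rate. Fosb in RBM45 KO was 1.52 CPM in library 2 of clone 2 and 2.80 to 2.85 in the others. Egr3 in RBM45 KO was 6.56 CPM in library 1 of clone 1 and 3.88 to 4.03 in the others. Klf4 in RBM45 KO was 20.2 CPM in library 1 of clone 1 and 18.2 to 18.5 in the others. Dusp4 in the rescue was 22.6 CPM in library 1 of m2 and 16.5 to 17.1 in the others, and Zfp36 was 5.00 CPM in library 2 of m2 and 3.42 to 3.62 in the others. Atf3 in the controls was 4.87 CPM in library 1 of e4 and 2.25 to 2.58 in the others.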

How the results depend on the processing

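Member calls in the 3 RBM45 comparisons were 0 when any 1 library was left out (range 0 to 0). Tested as 16 libraries in 8 groups they were 8 (RBM45 KO against control), 8 (rescue against RBM45 KO) and 18 (rescue against control), since that test uses the spread between libraries. The shares of all genes called were then 15.5%, 18% and 34.3%. For rescue against control DESeq2 called 3, and leaving out RBM45 KO clone 1 or clone 2 gave 1 each, Arc. Leaving out 1 library gave 13 to 28 calls for METTL3 KO against WT, 9 to 17 against the controls, 2 to 25 for the controls against WT, 6 to 11 between control clones, 6 to 8 between RBM45 KO clones, 1 to 2 between rescue clones, and 0 to 0 for exon against intron. Outside the 3 RBM45 comparisons, the number of all genes called also moved when a library was left out. Scaling by total counts gave 13 calls for METTL3 KO against WT, 7 between control clones and 1 between rescue clones. The shares of all genes called were then 33.1%, 12.5% and 1.08%. This scaling also turned Klf6 to 0.10 and Ier5 to 0.17 for rescue against RBM45 KO. With no filter there were 21 calls for the controls against WT, where 1962 of 31806 genes were called. Between control clones there were 18, where 3267 of 31806 genes were called. Between rescue clones there were 7 with no filter and 1 with DESeq2, and the share over all genes is not given here for these. The cause of these shifts was not tested. Of 1004 values of 75 named results under alternatives, 889 kept direction and side of the threshold, 96 lost the call, 17 gained one and 2 changed sign.

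Replicate numbers were not treated as pairing the samples, because over 28 pairs of groups the correlation of same-numbered deviations ran from -0.225 to 0.365, with 11 over 0.1. Most members were nevertheless higher in library 1 in 6 of the 8 groups. With the replicate number as a block there were 30 calls for METTL3 KO against WT, 19 against the controls, 18 for the controls against WT, 12 between control clones, 8 between RBM45 KO clones and 3 between rescue clones. Calls over all 16223 genes rose with the block as well. In the first 4 of these comparisons they went from 3721 to 4005, 4962 to 5214, 1458 to 1745 and 3175 to 3420. Low counts limit Fos, Fosb (499 counts over the 16 libraries), Dusp2, Egr2, Nr4a2 and Klf2.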
